A study of Homo sapiens with 18 samples.

Results

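The cytosolic ribosomal protein genes encode the protein components of the large (RPL) and small (RPS) ribosomal subunits. They were selected by gene symbol, with no use of the measurements, and 80 of the 26475 genes in the table matched, 49 of the large subunit and 31 of the small subunit. RNA was sequenced from the uveal melanoma (UM) cell lines Mel92.1 and MP41, grown from human eye tumors. Treatment lasted 48 h, and the cells received the solvent DMSO alone or 1 μM of either UNC0642 or A366. Both compounds inhibit EHMT2 (G9a), an enzyme that methylates histone H3 at lysine 9, and can also inhibit EHMT1. There were 3 libraries for each of the 6 combinations of line and treatment, 18 in all. The labels name no further treatment, and no transgene or deletion. The study's methods speak of biological replicates for its experiments in general. The labels do not say whether the 3 replicates came from separate cultures, and if they did not, the p-values measure only the spread between these libraries.

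The labels of 4 libraries did not hold. A366 replicates 2 and 3 are exchanged between the lines in the study's own expression values, whose 18 columns each matched best a library of the same group under the exchanged placement, while 14 did so as labelled. RPS27L shows the exchange directly, since A366 replicates 2 and 3 under the Mel92.1 label held 140 and 160 CPM (read counts scaled to a common library size with TMM composition factors), whereas the Mel92.1 DMSO and UNC0642 libraries held 35.6 to 50.3 CPM and those of MP41 105 to 124 CPM. The exchanged placement is used below, and replicate names refer to it. Results that rest on the A366 libraries are also given as labelled and without these 4 libraries.

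Total counts ran from 23601156 to 62941462 per library, and 4 ribosomal RNA genes took 3.31% to 32.8% of them, with the highest share in Mel92.1 UNC0642 replicate 1. Of 7 melanocytic markers (MITF, PMEL, MLANA, TYR, TYRP1, DCT and SOX10), 7 had a median above 1 CPM in each line, with a summed level of 21000 to 24400 CPM in Mel92.1 and 15000 to 16200 CPM in MP41. TYRP1 and PMEL had the highest medians in both lines. DCT was low in Mel92.1, at a median of 2.2 CPM beside 329 CPM in MP41. Of 6 markers of other cells (PTPRC, PECAM1, EPCAM, COL1A1, KRT5 and ALB), 1 passed a median of 1 CPM in Mel92.1 and 2 in MP41, with summed levels of 8.14 to 22.5 CPM and 8.48 to 24.3 CPM.

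Ribosomal proteins are needed in equal numbers, since each ribosome holds 1 copy of nearly all of them. Their mRNAs are short and abundant, and most begin with a terminal oligopyrimidine (TOP) tract, a run of C and T at the very start of the transcript through which mTOR and LARP1 control their translation. Members also act outside the ribosome, and RPL5 and RPL11 bind MDM2 when ribosome assembly is disturbed.

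The RefSeq starts (GRCh38.p14) of a few members are shown because the members share this feature although the selection by symbol did not use it. Each line holds 15 bases before and 15 bases from the annotated start, so that the start is base 16, and the capitals mark the unbroken run of C and T that covers it:
RPLP0 (chr12:120201097-120201126, minus strand): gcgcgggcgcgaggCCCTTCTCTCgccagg
RPLP2 (chr11:809952-809981, plus strand): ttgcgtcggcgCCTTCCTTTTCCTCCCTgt
RPS6 (chr9:19380222-19380251, minus strand): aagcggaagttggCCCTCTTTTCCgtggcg
RPS19 (chr19:41860240-41860269, plus strand): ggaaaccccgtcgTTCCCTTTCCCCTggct
RPL26 (chr17:8383179-8383208, minus strand): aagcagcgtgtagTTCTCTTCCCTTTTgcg
RPS25 (chr11:119018329-119018358, minus strand): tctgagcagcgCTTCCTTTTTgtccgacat
RPS29 (chr14:49598696-49598725, minus strand): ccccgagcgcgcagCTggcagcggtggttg
RPS28 (chr19:8321481-8321510, plus strand): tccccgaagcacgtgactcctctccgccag
RPS27L (chr15:63157463-63157492, minus strand): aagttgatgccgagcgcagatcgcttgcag

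A run of at least 6 bases of C or T covered an annotated start in 47 of the 63 members with a listed start (74.6%), read on the transcribed strand. The same held for 9.71% of 11329 other tested genes and for 7.41% of all 35116 starts in the table. RPS29 and RPS28, which lead the A366 result below, have no such run at the annotated start, nor has RPS27L. In RPS28 a run of C and T follows just after that start, so a member counted without a run can hold one nearby. The stalk proteins RPLP0 and RPLP2, which recruit translation factors to the ribosome, and RPS6, the substrate of the S6 kinases, do.

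Of the 80 members, 78 passed the filter on low counts in every fit. RPL3L, a copy of RPL3 known from muscle, held 0 to 10 counts per library, and RPL10L, a copy of RPL10 known from testis, held 0 to 2, too few to detect a change in either. The 78 members together took 4.82% to 5.29% of the scaled counts in the 6 DMSO and UNC0642 libraries of MP41, and 7.61% to 10.5% in those of Mel92.1. These lines did not overlap. In bulk RNA, a change in the cells that express a gene and a change in RNA per cell cannot be told apart.

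**Figure D1:**
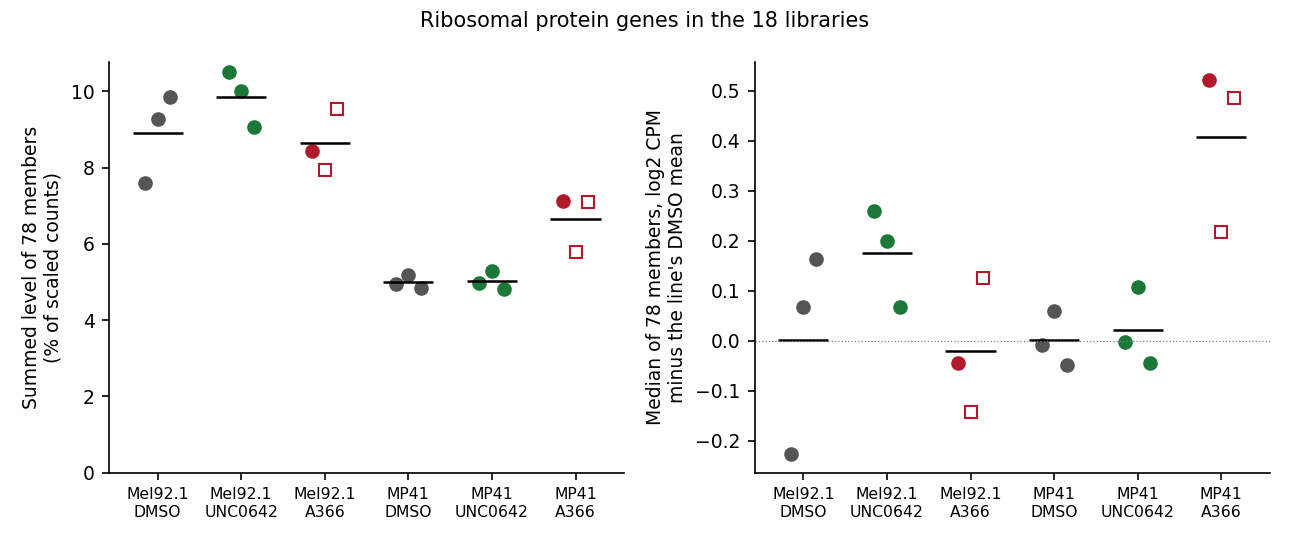
Summed level of the 78 ribosomal protein genes (left, percent of scaled counts) and the median over the members of log2 CPM minus the mean of the DMSO libraries of the same line (right), for the 3 libraries of each group. Points are libraries, bars are group means, and open squares are the 4 libraries labelled as the other line; the 3 MP41 A366 libraries lie above the MP41 DMSO and UNC0642 libraries, at a median of 0.218 to 0.521.

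Within a line, the levels of members differed widely. Per kilobase of coding transcript, with the 4 divergent copies left aside, the mean levels in DMSO ran from 207 (RPL32) to 6060 CPM per kb (RPS2) around a median of 1280 in Mel92.1, and from 118 (RPS28) to 2990 CPM per kb (RPL8) around a median of 686 in MP41. These values divide by the median length of the annotated coding transcripts, 1326 bases for RPS28, so a member with long annotated forms reads low. RPS2, an entry-channel protein of the small subunit, ranked 1 of all 80 members in Mel92.1 and 15 in MP41, with the copies included. RPL8, of the large subunit, ranked 5 and 1. RPLP0 ranked 2 and 9.

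The divergent copies were rare beside their main forms. RPL39L, a copy of the exit tunnel protein RPL39, was at 38.3 CPM per kb in Mel92.1 and 22.8 in MP41 with DMSO, beside 1050 and 646 for RPL39. RPS27L, a copy of RPS27, was at 54.9 and 147 CPM per kb, beside 2240 and 1330 for RPS27. The order of the lines is thus opposite for RPS27L and RPS27. The counting splits reads shared between genes, and 24 of the 80 members held counts that are not whole in at least 1 library. RPL39L and RPL39 did so in all 18 libraries, so their values are uncertain, while RPS27L and RPS27 held whole counts in every library.

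The lines differed most. With DMSO, 64 of 78 members were higher in Mel92.1 than in MP41 (34.5% of all 15799 genes tested were higher) and 5 were lower (34.8% of all genes), by edgeR's quasi-likelihood test with a Benjamini-Hochberg adjusted p under 0.05. The median log2 fold change was 0.80 over the members, a fold of 1.74, and -0.02 over all genes. Other genes with coding transcripts of at most 1000 bases and at least 100 CPM, which are like the members in length and level, had a median of 0.46 (188 genes, of which 63.8% were higher and 16.5% lower). Small subunit members had a median of 1.02 and large subunit members one of 0.66.

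RPS20, an rRNA-binding protein of the small subunit, differed most. It held 1440, 1710 and 1810 CPM in the DMSO libraries of Mel92.1, but 299, 351 and 285 CPM in those of MP41, so the lowest library of one line lay far above the highest of the other. Its log2 fold change was 2.41 ± 0.14 (SE, adjusted p = 7.24e-11, edgeR). RPS2 held 4990, 6000 and 6350 CPM in Mel92.1, and 1100, 1160 and 1080 CPM in MP41. The groups were again apart (log2 fold change 2.37 ± 0.12, adjusted p = 9.49e-12, edgeR). RPS19, a gene mutated in Diamond-Blackfan anemia, had a log2 fold change of 1.98 ± 0.16.

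The members that were lower in Mel92.1 were RPS27L, RPL26, RPS25, RPL7 and RPL30, of which the last pair is named after its values were seen. RPS27L held 35.6, 47.3 and 50.3 CPM in Mel92.1 and 124, 113 and 119 CPM in MP41 (log2 fold change -1.42 ± 0.11, adjusted p = 4.96e-09, edgeR). RPL26, a large subunit protein, held 370, 434 and 452 CPM against 718, 785 and 713 CPM (-0.82 ± 0.09, adjusted p = 5.43e-07, edgeR). RPS25, which some viral internal ribosome entry sites require, held 272, 343 and 359 CPM against 548, 582 and 511 CPM (-0.75 ± 0.11, adjusted p = 6.56e-06, edgeR). In each of these genes every Mel92.1 library was below every MP41 library. RPL7 and RPL30 had log2 fold changes of -0.75 and -0.47.

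The stalk was higher in Mel92.1 as a whole, with 4 of 4 members past the threshold: RPLP2 at a log2 fold change of 1.69, RPLP0 at 1.46, RPL12 at 1.12 and RPLP1 at 1.10. The members of the 5S particle, which carries 5S rRNA into the large subunit, differed less, with RPL11 at 0.46 and RPL5 at 0.29. The exit tunnel proteins RPL17 and RPL4 had values of 0.29 and 0.28.

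**Figure D2:**
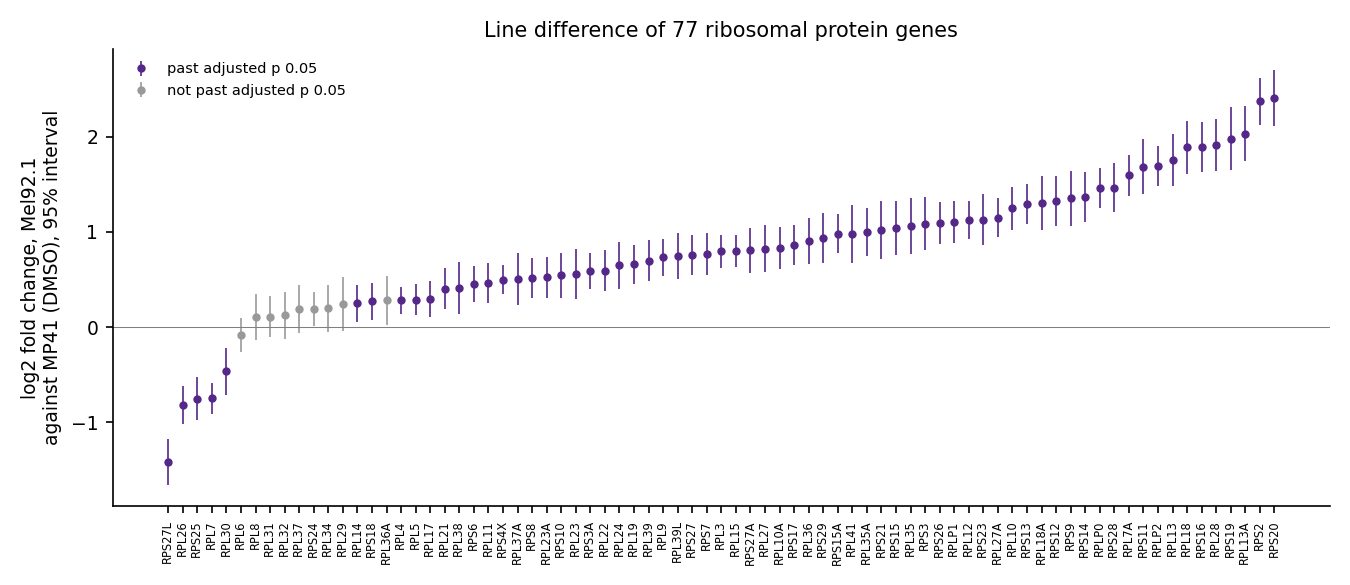
Log2 fold change of Mel92.1 against MP41 with DMSO (y axis, with 95% interval) for 77 of the 78 tested ribosomal protein genes, 1 not being reported here, ordered by value along the x axis. Purple points passed an adjusted p of 0.05; RPS27L, RPL26, RPS25, RPL7 and RPL30 lie below 0 past that threshold and RPS20 and RPS2 are the highest.

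Gene position went along with part of this pattern. The 12 members on chromosome 19 were all higher in Mel92.1, from 0.91 for RPL36 upward, with a median of 1.79, where 1064 other genes of that chromosome had a median of 0.65. The 3 tested members on chromosome 16 had a median of 1.76, beside 0.77 for the other genes there. The 4 members on chromosome 8 were split, with RPL7 (-0.75), RPL30 (-0.47), RPL8 (0.10) and RPS20 (2.41), and the other genes there had a median of -0.13. The part of chromosome position in these values was not tested.

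GC content moved with the line difference too, at r = 0.53 across the 78 members, which share the same libraries. Members with at most 45% GC had a median of 0.29, and other genes of at most 1000 bases with that GC content one of -0.03. Members between 50% and 55% GC had a median of 1.09 beside 0.28, and those between 55% and 60% had 1.83 beside 0.49. In every GC class the median of the members lay above that of the other short genes. With an offset for GC content and coding length, 68 members were higher (35.5% of all genes) and 6 lower (34.4%), at a median of 0.68.

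Other genes of protein synthesis were mostly higher in Mel92.1 as well, where 34.5% of all genes were higher and 34.8% lower. Of 19 other genes listed as being of the TOP class, mostly translation factors, 13 have a RefSeq start and 12 of these a pyrimidine run at it. Of the 19, 12 were higher and 3 lower, among them EEF1G at a log2 fold change of 1.84 and EEF1A1 at 1.11, both of elongation factor 1, and EIF3E at -0.99, a subunit of initiation factor 3. Of 28 ribosome assembly genes, 18 were higher and 7 lower, with the rRNA methyltransferase FBL at 1.87 and BRIX1 at -0.92. The mitochondrial ribosomal proteins were less one-sided, with 36 of 77 higher, 17 lower and a median of 0.14.

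UNC0642 changed no member past the threshold in Mel92.1, where 0.688% of all 14528 genes were called. All but 1 of the 78 values were above 0, with a median of 0.18, whereas the median of all genes was -0.02 and that of other short, highly expressed genes 0.05. At an unadjusted p under 0.05, 17 members were higher and 0 lower (9.93% of all genes in either direction), and in 16 members every UNC0642 library lay above every DMSO library (7.42% of all genes). The sign of the median depended on the scaling: by library size alone it was -0.04, with all genes at -0.23. The members' median lay above that of all genes under both scalings. The libraries were also uneven in ribosomal RNA, at 10.1% to 32.8% with UNC0642 and 6.50% to 12.5% with DMSO, and the part of this in the result was not tested.

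RPS24, another gene of Diamond-Blackfan anemia, had the highest value and is named after its values were seen. It held 859, 813 and 733 CPM with UNC0642 and 522, 631 and 636 CPM with DMSO. The groups did not overlap, at a log2 fold change of 0.42 ± 0.10 (adjusted p = 0.124, edgeR). DESeq2 called it, with an adjusted p of 0.00468, as did limma voom with sample quality weights, at 0.0247, each calling 1 member (1.66% and 1.99% of all genes were higher in these fits). RPS6 had a value of 0.24 ± 0.09, RPL5 of 0.23 ± 0.09 and RPLP0 of 0.08 ± 0.10, none of them past the threshold.

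A366 changed no member past the threshold in Mel92.1 by edgeR (0.213% of all genes were called), and 0 had an unadjusted p under 0.05 (4.32% of all genes). The median was -0.03 and the values ran from -0.16 to 0.16, with 95% intervals of the members between -0.43 and 0.41. DESeq2 called 0, but limma voom with sample quality weights called 28, all lower (10.8% of all genes were lower in that fit). Without the 4 libraries the median was -0.06, and as labelled -0.27.

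UNC0642 changed no member past the threshold in MP41 (0.241% of all 14956 genes were called), and 0 members had an unadjusted p under 0.05 (8.8% of all genes). The median was 0.00 and the values ran from -0.15 to 0.12. DESeq2 and limma voom called 0 as well. RPLP0 held 1540, 1390 and 1500 CPM with UNC0642 beside 1500, 1470 and 1500 CPM with DMSO, and these groups overlapped.

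A366 in MP41 stood apart. There 69 of 78 members rose (22.5% of all genes rose) and 0 fell (23.5% of all genes fell), with a median log2 fold change of 0.37, or a fold of 1.30, beside 0.02 over all genes. In 69 members every A366 library lay above every DMSO library (31.4% of all genes). The members rose together in both subunits, with 41 of 47 tested genes of the large subunit and 28 of 31 of the small subunit, at medians of 0.37 and 0.38. The 9 members that did not pass had values from 0.09 (RPL6) to 0.22 (RPL21). Within each line, both inhibitors are set against the same DMSO libraries. The members' summed level was 7.12%, 5.78% and 7.10% in the A366 libraries, of which replicates 2 and 3 are those labelled Mel92.1, beside 4.84% to 5.18% with DMSO.

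The largest rises were those of RPS29, RPS28 and RPS15. RPS29, a small zinc-binding protein of the small subunit (chr14:49570984-49599164, minus strand, GENCODE 29 on GRCh38), held 298, 254 and 230 CPM with A366 and 140, 147 and 125 CPM with DMSO. No A366 library came near the DMSO libraries, and the log2 fold change was 0.90 ± 0.10 (SE, adjusted p = 0.000225, edgeR). RPS28 (chr19:8321158-8323340, plus strand) held 309, 243 and 268 CPM with A366 and 158, 163 and 150 CPM with DMSO, a log2 fold change of 0.78 ± 0.09 (adjusted p = 0.00021, edgeR). RPS15 (chr19:1438358-1440494, plus strand), whose mutations are known in chronic lymphocytic leukemia, held 771, 579 and 864 CPM with A366 and 436, 433 and 423 CPM with DMSO, a log2 fold change of 0.75 ± 0.11 (adjusted p = 0.000493, edgeR). In RPS15 the spread among the A366 libraries was wide, with replicate 2 the lowest.

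All 4 stalk members rose, RPLP1 by 0.55 ± 0.09, RPLP2 by 0.50 ± 0.08, RPL12 by 0.43 ± 0.07 and RPLP0 by 0.31 ± 0.08 on the log2 scale. RPLP0 held 1980, 1600 and 2060 CPM with A366 and 1500, 1470 and 1500 CPM with DMSO, so its lowest A366 library was only slightly above DMSO. RPL11 rose by 0.32 ± 0.06 and RPL5 by 0.23 ± 0.06. RPS19 rose by 0.65 ± 0.15, RPS27A, which encodes a fusion of ubiquitin and a small subunit protein, by 0.37 ± 0.11, RPS26 by 0.27 ± 0.07 and RPS6 by 0.26 ± 0.08. Of the exit tunnel proteins RPL17 rose by 0.27 ± 0.07, while RPL4 had a value of 0.11 ± 0.05 (adjusted p = 0.109, edgeR).

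The copies rose with their main forms. RPL39L held 25.9, 22.9 and 24.1 CPM with A366 and 18, 17.2 and 16.1 CPM with DMSO (log2 fold change 0.49 ± 0.09), and RPL39 rose by 0.36 ± 0.08. RPS27L held 168, 140 and 160 CPM with A366 and 124, 113 and 119 CPM with DMSO (0.37 ± 0.08), and RPS27 rose by 0.31 ± 0.06. RPL3 and RPL10 rose by 0.38 ± 0.06 and 0.47 ± 0.08.

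**Figure D3:**
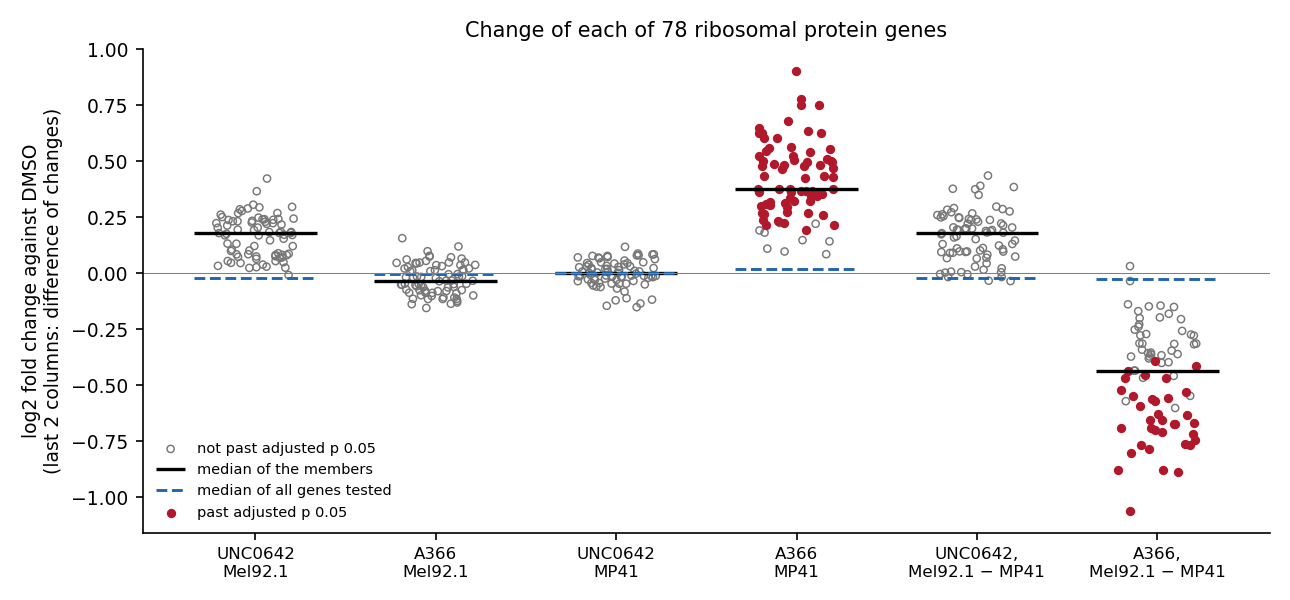
Log2 fold change against DMSO of each of the 78 ribosomal protein genes (y axis) for either inhibitor in either line, and the difference of the lines in that change (Mel92.1 less MP41) in the last columns. Points are genes, solid bars medians of the members and dashed bars medians of all genes tested; red points passed an adjusted p of 0.05, which 69 did with A366 in MP41 and 35 in the line difference for A366.

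The rise with A366 in MP41 followed transcript length across all genes, and the members are short, with a median coding length of 757 bases against 2576 for the other genes tested. Other genes of at most 600 bases had a median log2 fold change of 0.44 (156 genes, 48.7% higher), those over 600 and up to 1000 bases 0.35 (854 genes, 51.6% higher), those over 1500 and up to 2500 bases 0.12, and those over 4000 bases -0.32 (3302 genes, 51.8% lower). Members of at most 600 bases had a median of 0.50, those over 600 and up to 1000 bases 0.37 and longer ones 0.31. These classes rest on annotated lengths, which place RPS28 among the longer ones. Among other genes of at most 1000 bases with at least 100 CPM, 96 of 166 rose and 11 fell, with a median of 0.30. The members' median was thus near that of other short genes, and 88.5% of the members rose beside 57.8% of these 166 genes.

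GC content moved with the result as well. Across the 78 members, r was 0.53 with GC content and -0.21 with log2 length. Members above 60% GC had a median of 0.58 and other genes of at most 1000 bases in that class 0.61. Members between 45% and 50% GC had a median of 0.30 beside 0.28. At 45% GC or less the members were at 0.34 beside 0.12, so the members lay above other short genes in this class.

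**Figure D4:**
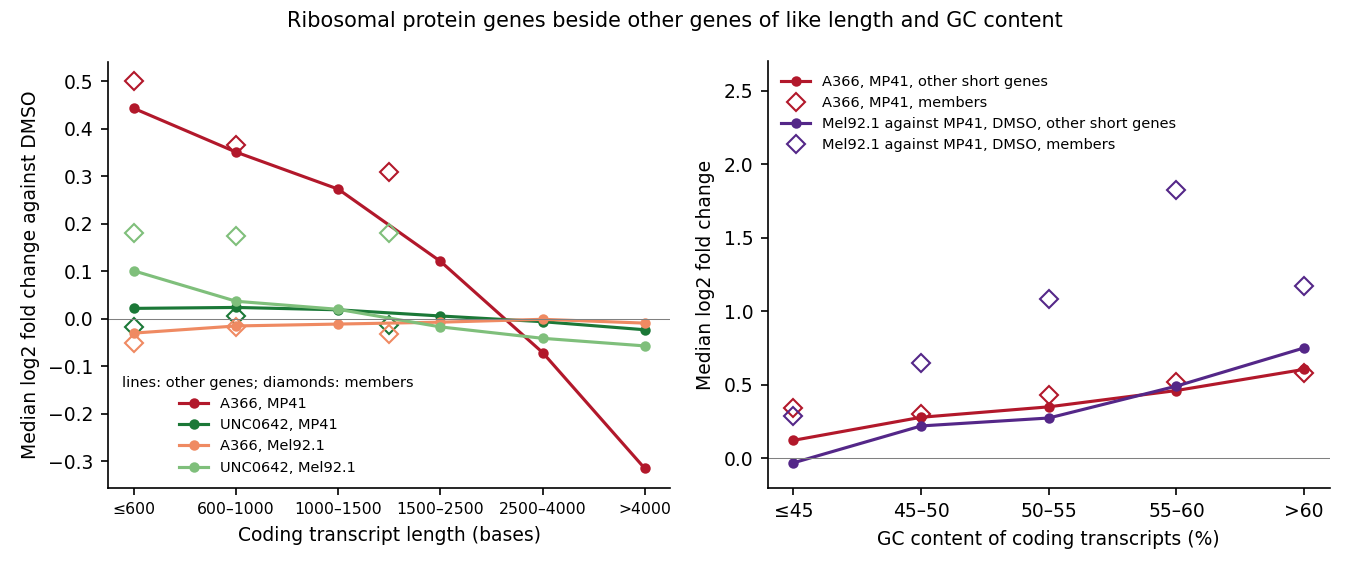
Median log2 fold change (y axes) by coding transcript length in bases (left) and by GC content of the coding transcripts in percent (right). Lines with points are other genes, of at most 1000 bases at right, and diamonds are ribosomal protein genes (at left, the diamonds between the third and the fourth class hold all members over 1000); with A366 in MP41 the shortest members are at 0.50 beside 0.44, and members of at most 45% GC at 0.34 beside 0.12, while in the line comparison every diamond lies above its line.

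With an offset for GC content and coding transcript length fitted per library, which was added after seeing the data, 23 members rose (15.2% of all genes) and 3 fell (16.5%), and the median fell from 0.37 to 0.08. RPS29 and RPS28 had the highest values there too, at 0.64 and 0.48, followed by RPL35A at 0.38, and RPS15 had 0.17. The offset used the median annotated coding length, 677 bases for RPS29, 1326 for RPS28, 1234 for RPL35A and 556 for RPS15. A member with long annotated forms is thus adjusted as a longer gene, whatever form the cells express. With the libraries as labelled, 65 members rose (19.4% of all genes) at a median of 0.71, where the labelled group holds both placed lines. Without the 4 libraries, 72 rose (16% of all genes) at a median of 0.48, with 1 A366 library assumed to vary like the other groups. The MP41 A366 libraries also had more ribosomal RNA, at 5.93% to 11.0% beside 3.31% to 5.10% with DMSO, and the part of this in the result was not tested.

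Of 47 members with a pyrimidine run at the start, 42 rose at a median of 0.38, and of 15 tested members with a listed start and no such run, 13 rose at a median of 0.37. The class without a run rests on the exact annotated start, and a run can lie nearby. Over all genes, 22.5% rose and 23.5% fell. The other genes listed as being of the TOP class were mixed, with 6 of 19 higher and 2 lower at a median of 0.12. EEF1D rose by 0.46, while PABPC1, the poly(A)-binding protein, fell by 0.18. Of 8 ribosomal proteins with other symbols, 6 rose, FAU by 0.45 and RPSA by 0.32 among them, and RPL7L1 fell by 0.48. The mitochondrial ribosomal proteins, which carry no TOP start as a group (8.82% of 68), rose in 45 of 77 and fell in 3, at a median of 0.27.

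Of 28 ribosome assembly genes, 11 rose (39.3%) and 6 fell (21.4%), beside the 22.5% and 23.5% of all genes, with the U3 snoRNP protein RRP9 at 0.60 and UTP20, another factor of the small subunit precursor, at -0.65. Of 11 genes of RNA polymerase I, which transcribes rRNA, 1 rose (9.09%) and 2 fell (18.2%). Of 13 regulators, 4 rose (30.8%) and 5 fell (38.5%). The mTOR pathway genes past the threshold went both ways: MTOR had a log2 fold change of -0.43 and LARP1 of -0.45, the S6 kinases RPS6KB1 and RPS6KB2 of -0.58 and 0.42, and the translation repressors EIF4EBP1 and EIF4EBP2 of 0.52 and -0.42. MDM2 was at -0.30 and the cell cycle inhibitor CDKN1A at 0.45, both past the threshold. Of 4 ribosomal RNA genes, 2 rose. Change in this comparison followed transcript length across all genes, and the part of length in the values of these lists was not tested.

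The 2 inhibitors were given at the same dose for the same time, so they were compared directly, once in each line, with p-values adjusted over all genes. In MP41, 69 of 78 members were higher with A366 than with UNC0642 (21.1% of all genes were higher) and 0 were lower (22% of all genes), at a median of 0.40. In 56 members the libraries did not overlap (26.8% of all genes). RPS29 held 136, 148 and 119 CPM with UNC0642, RPS28 163, 161 and 140 CPM and RPS15 451, 467 and 452 CPM. Against these, A366 differed by 0.94 ± 0.10, 0.80 ± 0.09 and 0.67 ± 0.11 on the log2 scale. Other genes of at most 1000 bases had a median of 0.32. Without the 4 libraries 72 members were higher (15.5% of all genes) at a median of 0.49, and as labelled 63 (18.6%) at 0.76.

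In Mel92.1, no member differed between the inhibitors past the threshold (0.165% of all genes did), and 15 were lower with A366 at an unadjusted p under 0.05 (7.21% of all genes in either direction). DESeq2 and limma voom called 0. In 20 members every A366 library lay below every UNC0642 library (6.88% of all genes). The median difference was -0.19 and the 95% intervals of the members reached from -0.67 to 0.38, so these data do not show that the inhibitors act alike there. Scaled by library size alone, the median was 0.05, with all genes at 0.25. Without the 4 libraries it was -0.23 and as labelled -0.45.

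The difference between the lines in the response was tested as an interaction in 1 fit of the 18 libraries. For A366, 35 members had a lower change in Mel92.1 than in MP41 (8.67% of all genes) and 0 a higher one (5.13%), at a median of -0.44. The 3 largest differences were those of RPS29 (-1.06 ± 0.175, adjusted p = 0.00177, edgeR), RPS9 (-0.89 ± 0.19, adjusted p = 0.00925, edgeR) and RPS28 (-0.88 ± 0.17, adjusted p = 0.00529, edgeR). RPS29 held 247, 215 and 256 CPM with A366 in Mel92.1, beside 223, 254 and 310 CPM with DMSO, which overlapped, unlike the libraries of MP41. Of other genes of at most 1000 bases, 231 of 1071 were lower in this comparison, at a median of -0.39. With the offset for GC content and coding length, 12 members were lower (3.04% of all genes) and 1 was higher (1.68%). With the libraries as labelled, 2 members were higher (23.7% of all genes). Without the 4 libraries, 7 were lower (0.849%), and as labelled 62 were (25.7%). The count of calls ran from 7 to 61 when single libraries were left out, from 7 without Mel92.1 A366 replicate 2 to 61 without Mel92.1 DMSO replicate 1.

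For UNC0642, no member had a different response between the lines past the threshold (0.601% of all genes did), and 9 were higher in Mel92.1 at an unadjusted p under 0.05 (9.79% of all genes in either direction). The median was 0.18. DESeq2 and limma voom called 0 here too.

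The members varied together. Over the 18 libraries, which differ mainly by line, the mean correlation of log2 CPM between members was 0.68, and for deviations from the group means it was 0.79, where library scaling is shared by every member. RPL10A, of the large subunit, had the highest mean correlation with the others over the 18 libraries, at 0.82. RPS27L had the lowest, at -0.58, followed by RPL26 at -0.50, RPL7 at -0.47 and RPS25 at -0.44. Within the groups these members deviated with the rest, at 0.68 for RPS27L, 0.81 for RPL26, 0.87 for RPL7 and 0.85 for RPS25. A library that was high in 1 member thus tended to be high in nearly all, as in Mel92.1 DMSO, where replicate 1 was lowest for RPS20, RPS2, RPS27L, RPL26 and RPS25 alike. This was not particular to the members. Against the DMSO mean, their log2 medians in these 3 libraries were -0.227, 0.067 and 0.164. Those of 188 other short, highly expressed genes were -0.175, 0.059 and 0.118.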

How the data were processed

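RNA-seq was measured in 18 libraries of 2 UM cell lines. The authors deposited 1 table of RSEM expected counts per gene symbol, not normalized. The submitters' processing notes name Bowtie2 2.1.0, RSEM 1.2.15 and hg38, while the paper's methods describe TopHat, Cufflinks and a mouse build. The methods and extraction protocol name oligo-dT selection, and the series text removal of ribosomal RNA. Expected counts that are not whole were rounded, and 0 sample columns were left out.

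Within a line, 9 libraries were fitted with edgeR 4.0.16 in R 4.3.3 (filterByExpr, TMM, glmQLFit, glmQLFTest), and all 18 for comparisons of the lines, p-values being adjusted by Benjamini-Hochberg across every tested gene, with a threshold of 0.05. Printed CPM values use TMM factors of the 18 libraries. Placement of the 4 A366 libraries followed the study's expression values. The members, gene lists, placement and tests were chosen with earlier results of these data known. Named genes were 4 divergent copies and their main forms, 12 members by role, and in each comparison the 3 largest rises and falls among members past the threshold whose groups did not overlap (no such condition in the interactions), with the members of highest and lowest mean correlation. RPL6, RPL7, RPL8, RPL21, RPL30, RPL32, RPL35A, RPL36 and RPS24, and the genes named from other lists, were chosen after their values were seen. Single values of some genes are not reported here.

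Coding length and GC content are medians over the coding transcripts of the GENCODE 29 basic set (GRCh38). The class of short genes set at first, with a median length over every transcript of at most 1000 bases, held 6797 of 14878 other genes in MP41 and was replaced after seeing the data. Its A366 median in MP41 was 0.06. Alternatives were DESeq2 1.42.0, RLE factors, library size alone, no filter, a minimum mean of 1 CPM, the replicate block, offsets for GC content and length, limma 3.58.1 (voom with quality weights, or a trend on log2(CPM + 1)), other sets of libraries, an unadjusted p with a fold change of at least 1.5, and leaving out each library. The test was checked on simulated counts. Tables and plots used Python 3.11.15 with pandas 2.3.3 and matplotlib 3.10.9. At 23601156 to 62941462 counts per library, the spread between libraries rather than counting limited the precision of all members but RPL3L and RPL10L.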

Additional observations from a re-analysis of the deposited data

Results flagged for a closer look

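The response to A366 differed between the lines, which is why it stands here: 35 of 78 ribosomal protein genes had a lower change in Mel92.1 than in MP41 by the interaction test (edgeR, adjusted p under 0.05), where 8.67% of all genes were lower, and 0 had a higher one, where 5.13% of all genes were higher. The count ran from 7 to 61 when single libraries were left out. Other genes of at most 1000 bases also had a lower median change in Mel92.1, as given above. With the offset for GC content and coding length, 12 members were lower (3.04% of all genes) and 1 was higher (1.68%).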

How the results depend on the processing

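With UNC0642 in Mel92.1, 1 member was called by DESeq2, by limma voom with quality weights, in 1 fit of all 18 libraries and with the offset for GC content and coding length. That offset also called 1 member in the line difference for UNC0642. Limma voom called 28 members with A366 in Mel92.1, all lower (10.8% of all genes were lower). It called 77 in the line difference for A366, all lower, at a median of -0.62. In that fit 30.7% of all genes were lower and 28% higher. Library size alone moved the medians to -0.037 (UNC0642 against DMSO, Mel92.1), 0.048 (A366 against UNC0642, Mel92.1), 0.594 (the lines with DMSO) and -0.044 (line difference for UNC0642). The medians of all genes moved too, to -0.233, 0.249, -0.222 and -0.235 in the same order. Library size alone also left 7 calls in the line difference for A366.

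With the libraries as labelled, the medians were -0.273 (A366 against DMSO) and -0.453 (A366 against UNC0642) in Mel92.1, 0.712 and 0.758 in MP41, and -0.984 with 64 calls in the line difference for A366, which had 7 calls without the 4 libraries. The offset for GC content and length of the longest transcript gave 40 calls for A366 against DMSO in MP41, at a median of 0.187. Of these, 38 were higher (17% of all genes) and 2 lower (17.2%). Against UNC0642 there, 45 members were higher (17.5%) and 1 lower (17.5%), at a median of 0.217. In the line difference for A366 there were 13 calls, all lower (3.7%), at a median of -0.264. With the replicate block added, calls and medians were 44 and 0.190, 45 and 0.226, and 4 and -0.257 in the same order. The offset with coding length, chosen after seeing the data, gave 26 calls and 0.076, 24 calls and 0.090, and 13 calls and -0.140. The 26 were 23 higher (15.2% of all genes) and 3 lower (16.5%). The 24 were 21 higher (16%) and 3 lower (17.1%), and the 13 were 1 higher (1.68%) and 12 lower (3.04%). With the replicate block this offset gave 23 and 0.077, 25 and 0.093, and 8 and -0.139, with 0.643 for the lines with DMSO. By unadjusted p (0.05) and a minimum fold of 1.5 together, 12 members were called for A366 against DMSO and 11 against UNC0642 in MP41. Where a count in this section stands without a share of all genes, it describes the members alone.

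Same-numbered libraries of a line showed no shared deviation, at r of -0.14 to 0.151 in Mel92.1 and -0.0583 to 0.068 in MP41. Libraries with different numbers had r of -0.201 to 0.261 and -0.0565 to 0.066. The labels do not say whether same-numbered libraries were prepared together, and these correlations cannot show it. The replicate block left 18 calls in the line difference for A366 and changed no other count by over 1.5 times.

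Values of named members that were past the threshold changed sign in 20 cases. As labelled, RPS25 was at -0.225 and RPS27L at -0.426 with A366 against DMSO in MP41, and at -0.210 and -0.358 against UNC0642. With the offset for the longest transcript, RPS26 was at -0.041 (-0.042 with the block) and -0.018 (-0.019) in those comparisons. With coding length, RPLP0 was at -0.028 with and without the block, RPLP2 at -0.036 (-0.041), RPS25 at -0.004 (-0.003) and RPS27 at -0.035 (-0.034) against DMSO, and RPL12 at -0.003 (-0.002) and RPLP2 at -0.001 (-0.004) against UNC0642. The causes of these differences between settings were not tested.

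Leaving out single libraries gave 55 to 76 calls and medians of 0.332 to 0.452 for A366 against DMSO in MP41, 56 to 76 and 0.359 to 0.477 against UNC0642, 66 to 75 and 0.725 to 0.908 for the lines with DMSO, and 7 to 61 and -0.530 to -0.342 in the line difference for A366. That count was 61 without Mel92.1 DMSO replicate 1, 11 without replicate 2 and 8 without replicate 3, 13 and 7 without Mel92.1 A366 replicates 1 and 2, 10 and 8 without MP41 A366 replicates 1 and 3, and 17 and 14 without MP41 DMSO replicates 1 and 3. The other comparisons kept 0 calls, with medians of 0.072 to 0.252 (UNC0642, Mel92.1), -0.147 to 0.065 (A366, Mel92.1), -0.265 to -0.133 (A366 against UNC0642, Mel92.1), -0.030 to 0.039 (UNC0642, MP41) and 0.073 to 0.251 (line difference for UNC0642). Of 507 values of counts and medians, 451 stayed within 1.5 times or 1 SD.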
